A study of Mus musculus with 6 samples.

Results

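The interleukin-1 family was described in mouse esophageal and stomach organoids through 10 genes, the ligands Il1a, Il1b, Il18 and Il33, the antagonist Il1rn, and the receptors Il1r1, Il1r2, Il1rl1, Il1rl2 and Il1rap. Members were taken by gene name among the non-control probes of the arrays, which gave 14 probes on 23 spots out of 55681 probes under 34298 gene names. All 10 genes were on the array. RNA was measured on 6 one-color Agilent mouse arrays, 3 of stratified squamous esophageal organoids and 3 of columnar stomach organoids, all labelled Control, at passage 0, and both tissues were taken from mice 1, 2 and 4. Culture ended on day 8, but on day 7 for the stomach organoids of mouse 4. The methods describe wild-type C57BL/6 female mice and an adult age at euthanasia, without tying either to single arrays. Both media held EGF, noggin, FGF-10, a TGF-beta receptor kinase inhibitor and a ROCK inhibitor. The stomach medium also held WNT3A and R-spondin1 conditioned medium and gastrin, and the esophageal medium held forskolin instead, so tissue and medium cannot be told apart in any comparison.

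Interleukin-1 family cytokines are alarm signals that epithelia, myeloid cells and fibroblasts make. IL-1 alpha and IL-33 are stored in the cell and act when it is damaged, whereas IL-1 beta and IL-18 are made as precursors that caspase-1 cleaves inside inflammasomes. Each cytokine binds a primary receptor chain (both forms of IL-1 share IL1R1, and the IL-36 agonists share IL1RL2), which then recruits an accessory chain (IL1RAP for IL-1, IL-33 and IL-36) and signals through MYD88 and IRAK kinases to NF-kappaB. IL1RN blocks IL1R1, and IL1R2 binds IL-1 without signaling.

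Levels below are log2 values of background-corrected, quantile-normalized intensity as deposited, and a difference is the esophagus mean minus the stomach mean. A level belongs to its own probe, and levels of different probes are not compared. In RNA from whole organoids, fewer cells of a type and less RNA per cell cannot be told apart. A probe was called when its adjusted p from limma, over all 55681 probes, was under 0.05. A probe was taken as well above background on an array where the scanner software marked more than 0.5 of its spots so. Over the whole array, 12.2% of all probes were called, 5.94% toward the esophagus and 6.22% toward the stomach.

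Of the 14 member probes, 4 were called (28.6%), against the 12.2% of all probes. Il1r2 and 1 probe of Il1rap were higher in esophageal organoids, and Il33 and Il1r1 were higher in stomach organoids. Among the 6 member probes that were well above background on every array of 1 tissue or both, these 4 were called and Il1rn and Il18 were not. In a fit over only the 25858 probes that pass this filter, 26.8% of the probes were called. Of the 6 member probes in it, 5 were called, with Il18 gained (adjusted p = 0.0278, limma). A probe bright in only 1 tissue passes the filter, as Il1r2 did through the esophagus. These shares are therefore not independent of the difference tested. The median difference was 0.16 over the 14 member probes and 0.02 over all probes. Another 6 member probes were well above background on no array.

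The probes that carry the members' measurements are 60 bases long, and those of Il1r2, Il18, Il1rn and Il1rl2 are shown because they read the decoy receptor, the precursor cytokine, the antagonist and the IL-36 receptor described below.
Il1r2: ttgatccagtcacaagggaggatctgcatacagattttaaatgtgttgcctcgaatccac
Il18: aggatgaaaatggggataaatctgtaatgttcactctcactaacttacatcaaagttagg
Il1rn: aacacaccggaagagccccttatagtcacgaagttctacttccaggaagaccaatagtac
Il1rl2: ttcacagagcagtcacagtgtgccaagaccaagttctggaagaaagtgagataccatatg

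Among the ligands, Il1a encodes IL-1 alpha, a cytokine stored in keratinocytes. Its probe (RefSeq NM_010554, mm9 chr2:129125994-129126053, minus strand) read 11.09, 6.77 and 5.42 in the esophageal organoids of mice 1, 2 and 4, and 5.47, 5.41 and 5.96 in their stomach organoids. The esophageal array of mouse 1 stood alone, that of mouse 4 lay inside the stomach range, and the probe was well above background on 2 of 3 arrays of each tissue. The difference of 2.15 ± 1.25 (SE, n = 3 per tissue) did not pass (adjusted p = 0.367, limma). Its SD over the esophageal arrays was 2.96, against a median SD of 0.29 over the 22787 probes well above background there. Without the esophageal array of mouse 1 the difference was 0.48, and without that of mouse 4 it was 3.32 (adjusted p = 0.111, limma).

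Il1b encodes IL-1 beta, the main secreted form of IL-1. It was read by 10 spots of 1 probe (NM_008361, mm9 chr2:129190347-129190406, minus strand), and no spot on any array was well above background. The probe read 4.75, 4.77 and 4.50 in the esophagus and 4.68, 4.77 and 4.77 in the stomach. These values overlapped and their difference of -0.07 ± 0.15 did not pass (adjusted p = 0.852, limma). Within an array, the SD over the spots was 0.10 to 0.30, as large as the spread between arrays. Expression of Il1b was not detectable at this signal in either organoid.

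Il1rn, the receptor antagonist, was measured on all 6 arrays. The probe (NM_001039701, mm9 chr2:24205094-24205153) read 9.24, 8.27 and 7.65 in the esophageal organoids of mice 1, 2 and 4, and 6.94, 6.86 and 8.52 in the stomach organoids. The stomach array of mouse 4 lay above 2 of the 3 esophageal arrays, and the groups overlapped. The difference of 0.95 ± 0.53 did not pass (adjusted p = 0.344, limma), and by animal it was 2.30, 1.41 and -0.86.

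Il18, which gastrointestinal epithelia make as a precursor, had the lowest difference of all member probes, and its call depended on the fit. The probe (NM_008360, mm9 chr9:50389761-50389820) read 8.23, 11.80 and 6.99 in the esophagus and 13.76, 13.46 and 12.13 in the stomach. Every stomach array lay above every esophageal array, and the esophageal array of mouse 2 came nearest to the stomach values. The difference was -4.11 ± 1.11, a 17.2-fold gap of the means, with an adjusted p of 0.0525 (limma). In 9 of 14 alternative settings it did not pass, with adjusted p up to 0.188 (limma), among them an offset of 50 (0.106), trend and robust variances (0.188) and the fits without any 1 array other than esophageal mouse 2. It passed with the mouse as a block (0.0214), with 75th percentile scaling (0.0432), without dim probes and by unadjusted p. Without the esophageal array of mouse 2 the difference was -5.50 (adjusted p = 0.00151, limma), and within the slide that held 5 of the arrays it was -3.10 (adjusted p = 0.104, limma).

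Il33 encodes a nuclear alarm cytokine of barrier cells and was higher in stomach organoids. Its probe (NM_001360725, mm9 chr19:30035101-30035160) read 10.82, 10.82 and 8.43 in the esophagus and 12.59, 12.81 and 14.71 in the stomach. The groups did not overlap, and mouse 4 gave both the lowest esophageal and the highest stomach value. Il33 fell by 3.34 log2 units in the esophagus relative to the stomach (SE 0.76), a 10.2-fold gap, with an adjusted p of 0.0272 (limma). The call was lost in 6 of 14 alternative settings. The adjusted p was 0.0707 with the mouse as a block, 0.0643 with an offset of 50 and 0.0966 with trend and robust variances, and leaving out the stomach array of mouse 1, 2 or 4 gave 0.0565, 0.0709 and 0.0534 (limma). The difference was -2.55 without the esophageal array of mouse 4 and -2.68 without the stomach array of that mouse. The direction held in all 3 mice, with differences of -1.77, -1.99 and -6.28.

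Among the receptors, the signaling receptor for IL-1 was the higher one in stomach organoids. Il1r1 (NM_008362, mm9 chr1:40372667-40372726) read 8.07, 7.87 and 7.52 in the esophagus and 10.42, 9.96 and 11.45 in the stomach, and was well above background on all 6 arrays. The groups were separated by more than their own ranges. The difference was -2.79 ± 0.36, or 6.91-fold (adjusted p = 0.00192, limma), and by animal it was -2.34, -2.09 and -3.94. The call held in each of the 14 alternative settings, with adjusted p from 0.000236 to 0.0114 (limma).

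The decoy receptor moved the other way. Il1r2 (NM_010555, mm9 chr1:40180014-40180073) read 8.70, 8.21 and 7.25 in the esophagus, where it was well above background on all 3 arrays, and 4.63, 4.85 and 5.24 in the stomach, where it was so on none. The stomach values therefore set only a bound, and Il1r2 was at least 8.65-fold higher in esophageal organoids, taking the lowest signal among probes well above background on each stomach array or the probe's own signal, whichever was higher. The fitted difference was 3.15 ± 0.36 (adjusted p = 0.000904, limma). It was positive in all 3 mice (4.07, 3.36 and 2.01), and the call held in each of the 14 alternative settings. The fitted size moved with the processing, from 2.19 with an offset of 50 to 5.47 with 75th percentile scaling. Each of these settings changes more than 1 step, so the step behind the move was not tested. The bound therefore holds for the deposited values only.

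Il1rap encodes the accessory chain shared by the receptors of IL-1, IL-33 and IL-36, and is known in a membrane form and a shorter soluble form. It was read by 3 probes on chromosome 16, and which of these forms each probe reads was not tested. The probe for transcript variant 2 (A_52_P467232, NM_134103, mm9 chr16:26701498-26701557) read 7.46, 6.59 and 6.61 in the esophagus and 5.53, 4.79 and 6.07 in the stomach. This probe was well above background on all 3 esophageal arrays and on 2 of 3 stomach arrays. The groups did not overlap, and the difference of 1.43 ± 0.36 passed (adjusted p = 0.0417, limma). In 8 of 14 alternative settings it did not pass, which were an offset of 50, 75th percentile scaling, the slide as a block (adjusted p = 0.0552, limma) and the fits without any 1 esophageal array or without stomach mouse 1 or 2.

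The probe for variant 1 lay 15017 bases downstream (A_55_P2041422, NM_008364, mm9 chr16:26716515-26716574). It was well above background on 1 esophageal array and no stomach array, and read 5.98, 5.35 and 5.24 against 4.71, 4.99 and 5.08. These groups did not overlap either, but the difference of 0.59 ± 0.23 did not pass (adjusted p = 0.156, limma). The third probe (A_55_P2041432, mm9 chr16:26725291-26725350) was well above background on no array, with a difference of 0.10 ± 0.24.

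Il1rl1 encodes ST2, the IL-33 receptor, in a membrane form and a soluble decoy form. All 3 of its probes, at mm9 chr1:40504769-40504828 (A_51_P339793, variant 2), chr1:40520014-40520073 (A_55_P2027731, variant 1) and chr1:40522187-40522246 (A_55_P2027737, variant 1), were well above background on no array. Their values ran from 4.30 to 5.03 over the 6 arrays. The 3 differences were 0.21 ± 0.15, 0.04 ± 0.15 and -0.20 ± 0.22, and none passed (adjusted p = 0.465, 0.919 and 0.671, limma). Il1rl2, the receptor that binds IL-36, was likewise well above background on no array (NM_133193, mm9 chr1:40422123-40422182), with 5.0, 5.27 and 5.19 in the esophagus and 4.75, 5.05 and 4.56 in the stomach. Its difference was 0.37 ± 0.18 (adjusted p = 0.265, limma). The transcripts of both receptors were not detectable at this signal.

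**Figure D1:**
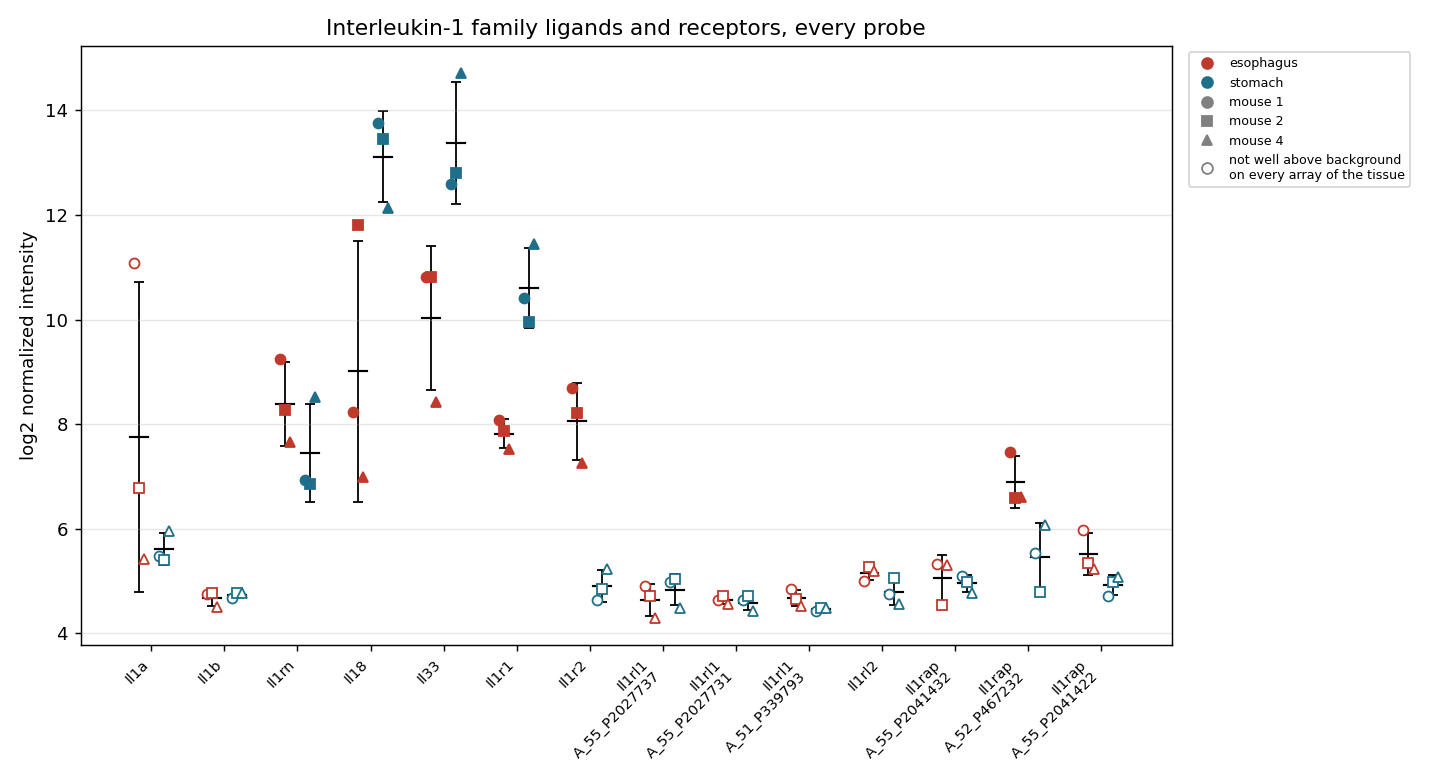
Log2 normalized intensity (vertical axis) of the 14 member probes on each array; symbols give the mouse, colors the tissue, black bars the mean ± SD (n = 3), and open symbols a tissue in which the probe was not well above background on every array. Il33 and Il1r1 lie higher in the stomach, Il1r2 and the variant 2 probe of Il1rap higher in the esophagus, and Il1a runs from 5.42 to 11.09 over the esophageal arrays.

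Of the 14 probes, 7 (50%) had groups that did not overlap. Over the whole array, 28.6% of the 55641 probes measured on every array did so. The non-overlapping probes were the 4 called ones, Il18, the variant 1 probe of Il1rap and 1 probe of Il1rl1 at background. With a threshold of unadjusted p under 0.05 and at least 1.5-fold (the methods name p and fold limits of this kind without saying whether p was adjusted), 6 of the 14 passed, against 18.1% of all probes. Il18 and the variant 1 probe of Il1rap were the ones gained.

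**Figure D2:**
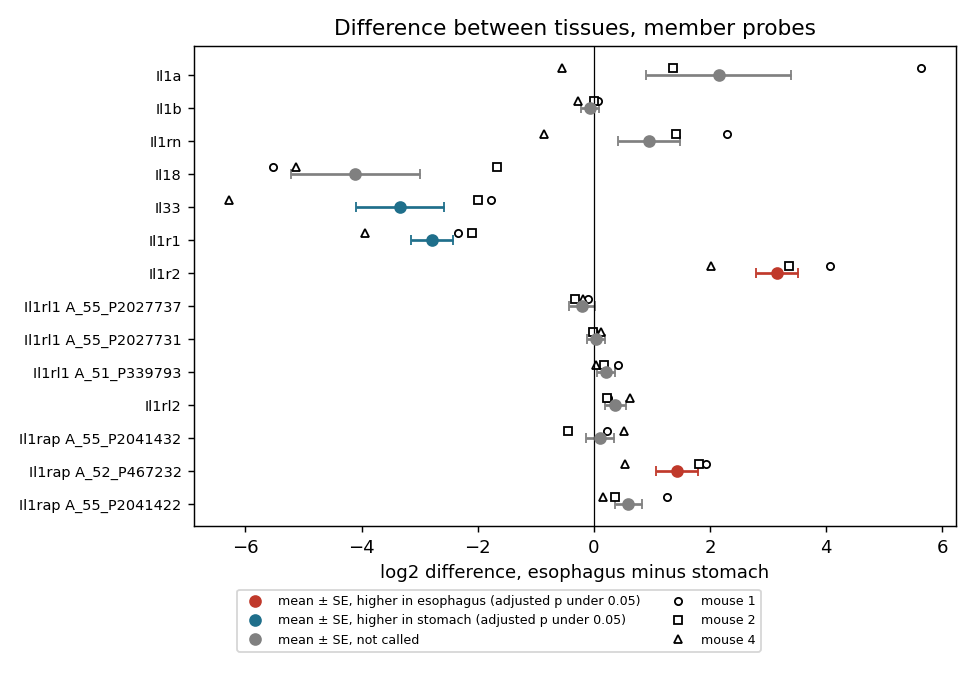
Log2 difference, esophagus minus stomach (horizontal axis), for each member probe; filled points with bars are the fitted difference ± SE, colored where called, and small open symbols are the differences within mice 1, 2 and 4. Il1r1, Il33 and Il18 are negative in all 3 mice, Il1r2 is positive in all 3, and Il1a and Il1rn change sign in mouse 4.

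The spread over esophageal organoids was not the same for all members. Of the 6 member probes well above background on all esophageal arrays, 5 were highest in mouse 1 and 5 were lowest in mouse 4. The exceptions were Il18, highest in mouse 2, and the variant 2 probe of Il1rap, lowest in mouse 2, and Il33 was equal in mice 1 and 2 to 2 decimals. Over the 22787 probes well above background there, 33.5% were highest in mouse 1 and 28.9% lowest in mouse 4. The esophageal array of mouse 4 was alone on its slide, and the part of the slide in these values was not tested. Of the 4 member probes well above background on all stomach arrays, Il33, Il1r1 and Il1rn were highest and Il18 lowest on the array of mouse 4, harvested on day 7, and the part of the harvest day was not tested. Over all 24427 such probes, 43.4% were highest and 39.3% lowest on that array.

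The receptor genes other than Il1rap lie next to each other on chromosome 1. By the array's mm9 coordinates, the probes from Il1r2 to Il18rap span 426 kilobases in the order Il1r2, Il1r1, Il1rl2, Il1rl1, Il18r1 and Il18rap, all on the plus strand. Along this stretch the difference was 3.15 at Il1r2, -2.79 at Il1r1, within ± 0.37 at Il1rl2 and Il1rl1, and -4.35 at the brighter probe of Il18r1. The probes of Il1r2 and Il1r1, called in opposite directions, are 193 kilobases apart. On chromosome 2, Il1rn lies beside the IL-36 genes, and Il1a and Il1b lie together within 64.4 kilobases.

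The 250 bases before the transcript start are shown for Il1r1 (second of its 2 starts) and Il1r2, neighbors called in opposite directions, and for Il1a, the member with the widest spread. The sequences are RefSeq's on GRCm38.p6, and all 10 members had at least 1 window, 15 in all. Capitals mark matches, on either strand, to an NF-kappaB motif spelled GGANTTNCC or to an AP-1 motif spelled TGANTCA.
Il1r1 (chr1:40266336-40266585, plus strand): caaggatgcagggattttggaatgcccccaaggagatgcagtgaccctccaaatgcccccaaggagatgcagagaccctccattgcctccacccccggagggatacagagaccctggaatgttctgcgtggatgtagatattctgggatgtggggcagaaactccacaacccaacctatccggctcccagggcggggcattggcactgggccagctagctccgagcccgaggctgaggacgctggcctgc
Il1r2 (chr1:40085843-40086092, plus strand): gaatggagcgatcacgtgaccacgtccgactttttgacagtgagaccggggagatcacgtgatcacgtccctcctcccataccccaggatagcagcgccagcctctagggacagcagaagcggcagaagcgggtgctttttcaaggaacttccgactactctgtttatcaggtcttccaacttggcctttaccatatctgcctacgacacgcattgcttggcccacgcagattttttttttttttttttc
Il1a (chr2:129309973-129310222, minus strand): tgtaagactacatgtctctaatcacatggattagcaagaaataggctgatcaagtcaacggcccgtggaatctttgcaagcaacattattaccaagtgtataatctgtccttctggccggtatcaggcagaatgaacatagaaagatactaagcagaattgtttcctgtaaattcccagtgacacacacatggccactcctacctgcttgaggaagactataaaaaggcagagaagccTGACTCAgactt

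The NF-kappaB letters occurred in 1 of the 15 windows (6.67%), that of Il1rl2, against 3.15% of all 32841 windows of this length. The AP-1 letters occurred in 2 of the 15 (13.3%), those of Il1a and of 1 Il1rn start, against 6.75% of all windows. Neither motif was in the windows of the 4 called genes. A match describes letters in a window and not a bound site.

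The other family genes were taken from a list of 11, each represented by its brightest probe. Of these, 3 were higher in the esophagus, 2 in the stomach and 6 were not called, where 14.9% of all gene names were called by the same measure, 7.15% toward the esophagus and 7.70% toward the stomach. The called ones were the 3 IL-36 agonists in one direction, and the IL-18 receptor and an inhibitory receptor in the other. The median difference was 0.13 over the list and 0.03 over all 34298 gene names.

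The IL-36 agonists are keratinocyte cytokines that signal through Il1rl2 and Il1rap. Il36a (Il1f6 on the array) read 11.78, 13.93 and 6.95 in the esophagus and 4.27, 4.36 and 5.34 in the stomach, and was at least 62.4-fold higher in esophageal organoids (fitted difference 6.23 ± 1.52, adjusted p = 0.0351, limma). Its call was lost without any 1 of 5 arrays, all but the esophageal array of mouse 4, with adjusted p from 0.0593 to 0.131 (limma), and with an offset of 50 (0.123) or trend and robust variances (0.161). The difference was 4.71 without the esophageal array of mouse 2 and 8.20 without that of mouse 4, so the size rests on single arrays. Il36b (Il1f8) read 8.18, 10.41 and 7.73 against 4.63, 4.60 and 4.83, at least 15.7-fold higher (fitted difference 4.09, adjusted p = 0.00393, limma), with a difference of 3.27 without esophageal mouse 2. Il36g (Il1f9) read 10.77, 9.82 and 8.49 against 4.69, 5.05 and 5.36, a difference of 4.66 ± 0.51 (adjusted p = 0.000768, limma), and 5.26 without esophageal mouse 4, and its stomach values were well above background on 1 of 3 arrays. For all 3 the tissues did not overlap, and mouse 4 gave the lowest esophageal value. The antagonist Il36rn (Il1f5) read 7.33, 10.47 and 4.99 against 5.05, 4.85 and 5.12 and did not pass (adjusted p = 0.227, limma).

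Il18r1, the binding chain of the IL-18 receptor, was well above background on all 3 stomach arrays (8.70, 9.02 and 9.47) and on no esophageal array (4.92, 4.71 and 4.53). Stomach organoids had at least a 17.2-fold higher level (fitted difference -4.35 ± 0.22, adjusted p = 1.04e-05, limma), and its second probe was also called higher there, with a smaller difference of -1.48 ± 0.19 (at least 2.49-fold). The accessory chain Il18rap was well above background on 2 stomach arrays and did not pass (adjusted p = 0.236, limma). Il18bp, the secreted inhibitor of IL-18, read 5.93 to 6.62 in the esophagus and 6.04 to 6.55 in the stomach, a difference of 0.01 ± 0.23. Sigirr, an inhibitory receptor of the family, read 9.45, 9.46 and 9.95 against 11.08, 11.11 and 10.95 and fell by 1.43 in the esophagus (SE 0.18, adjusted p = 0.00157, limma).

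The maturation and release list holds inflammasome sensors and an adaptor, caspases and the pore protein through which IL-1 beta and IL-18 leave the cell. It also holds genes of other kinds, S100a10 among them. Of its 17 genes, 3 were higher in the esophagus, 3 in the stomach and 11 were not called, with a median difference of 0.08. The called share was 35.3%, against 14.9% of all gene names. All 6 called genes were among the 14 of the list that were well above background on every array of 1 tissue or both. A gene high in only 1 tissue passes this filter, and over the whole array 4920 of the 5094 called gene names passed it. Casp1, the caspase that cleaves the precursors of IL-1 beta and IL-18, read 12.77, 12.70 and 13.34 in the esophagus and 5.25, 5.25 and 4.94 in the stomach. It was well above background on no stomach array and at least 221-fold higher in esophageal organoids (fitted difference 7.79 ± 0.21, adjusted p = 4.12e-07, limma).

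Pycard, the inflammasome adaptor ASC, was also higher in the esophagus (2.80 ± 0.16, adjusted p = 1.7e-05, limma), as was S100a10 (1.28 ± 0.31, adjusted p = 0.0354, limma). The S100a10 call was lost in 7 of 14 alternative settings, with an offset of 50, with the slide as a block and without any 1 array other than the stomach array of mouse 4 (adjusted p up to 0.145, limma). Gsdmd, the pore-forming gasdermin, read 8.22, 6.69 and 6.88 in the esophagus and 13.74, 13.86 and 13.55 in the stomach, and fell by 6.45 in the esophagus (SE 0.38, adjusted p = 2.29e-05, limma). The sensor Nlrc4 read 9.64, 9.80 and 9.76 in the stomach and was well above background on no esophageal array, at least 26.9-fold higher in the stomach (adjusted p = 4.51e-07, limma). The sensor Nlrp3 was well above background on no array. Casp1 and Pycard were called opposite to Gsdmd and Nlrc4, and these 4 calls held in each of the 14 alternative settings.

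**Figure D3:**
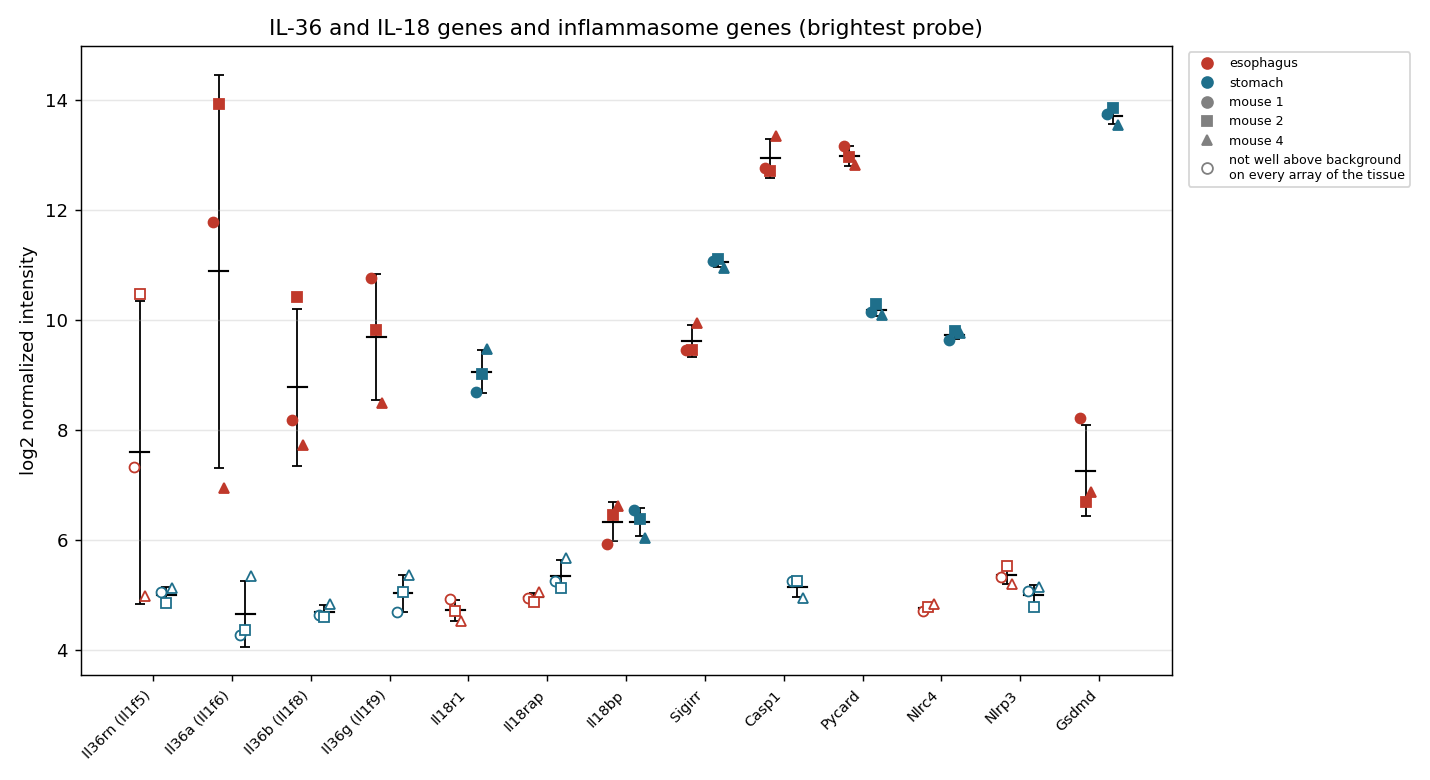
Log2 normalized intensity (vertical axis) of IL-36, IL-18 receptor and inflammasome genes on each array, with symbols, colors, open points and mean ± SD bars (n = 3) as in the plot of the members. Casp1 lies near 13 in the esophagus and near 5 in the stomach, while Gsdmd, Nlrc4 and Il18r1 lie higher in the stomach.

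Of the 14 genes listed for signaling close to the receptor, 1 was higher in each tissue and 12 were not called. All 14 were well above background on every array of a tissue or of both, and the called share was 14.3%, against 26.6% of the 18489 gene names read at that signal and 14.9% of all gene names. The brightest probe of Ube2n, a ubiquitin-conjugating enzyme that works with TRAF6, was higher in the esophagus (1.21 ± 0.28, adjusted p = 0.0305, limma), a call that was lost in 5 of 14 alternative settings, with an offset of 50 and without any 1 array of mice 1 and 2 (adjusted p up to 0.11, limma). The second Ube2n probe, well above background on all 6 arrays, had a difference of 0.05 ± 0.20 (adjusted p = 0.927, limma), so the probes disagree. Tab1, an activator of the kinase TAK1, fell by 1.49 in the esophagus (SE 0.24, adjusted p = 0.00568, limma). The adaptor Myd88 had a difference of 0.69 ± 0.21 (adjusted p = 0.0769, limma). Tollip was counted as not called by its brightest probe (0.57 ± 0.26, adjusted p = 0.238, limma). Another of its probes, well above background on all 6 arrays, was called higher in the esophagus (1.22 ± 0.23, adjusted p = 0.0124, limma). The remaining Tollip probe did not pass (-0.18 ± 0.18, adjusted p = 0.627, limma).

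Of 15 NF-kappaB genes, 2 were higher in the esophagus, 1 in the stomach and 12 were not called. All 15 were well above background in the same way, and the called share was 20.0%, against 26.6% of such gene names and 14.9% of all. Nfkbia, the inhibitor that NF-kappaB itself induces, read 15.33, 14.90 and 13.34 in the esophagus and 11.96, 12.01 and 12.53 in the stomach (2.36 ± 0.47, adjusted p = 0.0156, limma). It was not called without esophageal mouse 2 or without stomach mouse 1 or 2, with adjusted p up to 0.0759 (limma), and its difference was 2.95 without esophageal mouse 4. Nfkb1 was higher in the esophagus by 0.92 ± 0.16 (adjusted p = 0.00887, limma), with 0.79 ± 0.25 at a second probe that did not pass (adjusted p = 0.0873, limma), and Tnip1, which restrains NF-kappaB, fell by 1.74 there (SE 0.28, adjusted p = 0.00577, limma).

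Of 20 genes that IL-1 is known to induce, 5 were higher in the esophagus, 1 in the stomach and 14 were not called, with a median difference of 0.36. The share higher in the esophagus was 25.0%, against 7.15% of all gene names. All 6 called genes were among the 14 of the list that were well above background on every array of 1 tissue or both. By the same measure, 4920 of all 5094 called gene names passed that filter, and 26.6% of the gene names that passed it were called. The chemokine Ccl2 read 11.38, 12.38 and 8.02 in the esophagus, was well above background on no array of the stomach, and was at least 53.3-fold higher in esophageal organoids (fitted difference 5.80, adjusted p = 0.00631, limma); the difference was 4.90 without esophageal mouse 2 and 7.08 without mouse 4. Defb4, a beta-defensin, had a difference of 5.11 ± 0.76 (adjusted p = 0.00366, limma), 4.09 without esophageal mouse 2 and 5.74 without mouse 4, and in the stomach it was well above background on 1 of 3 arrays. Ptgs2, the inducible cyclooxygenase, had a difference of 3.14 ± 0.83 (adjusted p = 0.047, limma) and was well above background on 1 of 3 stomach arrays. In 8 of 14 alternative settings it did not pass, with adjusted p up to 0.165 (limma): offsets of 16 and 50, trend and robust variances, the mouse as a block, and the fits without esophageal mouse 1 or any 1 stomach array. Its difference was 2.15 without esophageal mouse 2 and 4.07 without mouse 4. Lcn2, an iron-binding defense protein, fell by 3.15 in the esophagus (SE 0.54, adjusted p = 0.0076, limma). Ptges was counted as not called by its brightest probe (0.29 ± 0.17, adjusted p = 0.377, limma). Its other probe, also well above background on every array, was called higher in the esophagus (2.15 ± 0.20, adjusted p = 0.00031, limma).

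Of the 12 induced genes that were well above background on all 3 esophageal arrays, 6 were highest in mouse 1, 6 were highest in mouse 2 and 10 were lowest in mouse 4, where the shares over all such probes were 33.5%, 24.4% and 28.9%. Il1a was also lowest in mouse 4. With 3 esophageal arrays, no relation between Il1a and these genes was tested.

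**Figure D4:**
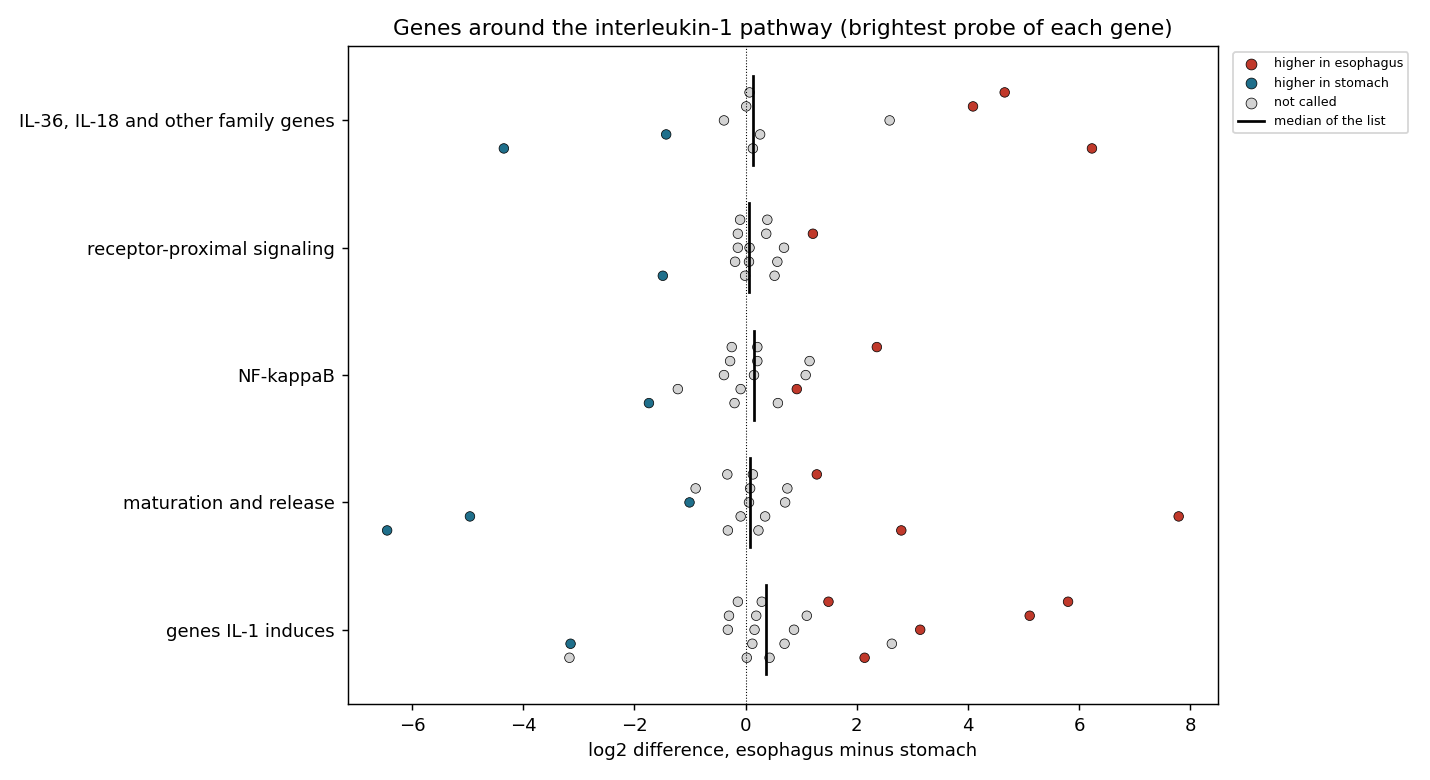
Log2 difference, esophagus minus stomach (horizontal axis), of each gene of the 5 pathway lists by its brightest probe; color marks called genes and the black line is the median of the list. Over the 77 genes, 14 were higher in the esophagus, 8 in the stomach and 55 were not called, and the list medians lie between 0.06 and 0.36.

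Markers of other cells that make or bind these cytokines were read beside the members. Of 11 leukocyte genes, Ptprc, Lyz2, Adgre1 and Itgax were well above background on no array; Ptprc is the defining marker of leukocytes. Cd3e, Cd68 and the brightest probe of Csf1r were well above background on all 6 arrays and were not called; of the other 2 Csf1r probes, 1 was so on 5 arrays and 1 on none. The brightest probe of Cd68, a macrophage marker, read 14.77, 12.94 and 11.80 in the esophageal organoids of mice 1, 2 and 4, highest in mouse 1 and lowest in mouse 4, an order that Cd3e, Csf1r, Itgam, S100a8 and S100a9 did not follow. The summed level of the list was 16.02 to 16.46 in the esophagus and 13.60 to 14.11 in the stomach. A few probes with a strong signal carry most of such a sum, so it does not describe the list as a whole. In the esophagus and the stomach, the mean was 15.74 and 5.39 for S100a9, and 12.93 and 4.75 for S100a8. S100a8 was well above background on no stomach array. The means were 13.17 and 11.54 for the brightest probe of Cd68, and 10.72 and 13.34 for that of Itgam. S100a8 and S100a9, which keratinocytes also express, were called higher in the esophagus. The brightest probe of Itgam was called higher in the stomach (-2.62 ± 0.28, adjusted p = 0.000662, limma), while its other 2 probes were well above background on no array (differences of -0.06 and -0.02). The part of such cells in the members' values was not tested. Of 6 mast cell genes, Fcer1a and Cma1 were well above background on no array, Cpa3 and Mcpt4 on 1 array each, and the brighter probe of Tpsb2 on all 6 (difference -0.50 ± 0.59, not called). Kit was so on 2 stomach arrays (-0.74 ± 0.15, adjusted p = 0.014, limma).

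Of 5 innate lymphoid, 6 fibroblast and 4 endothelial genes, none was called. In neither tissue did any fibroblast gene pass the background flag on each of its 3 arrays, so their summed level, 7.46 to 7.70 in the esophagus and 7.63 to 7.77 in the stomach, is mostly background signal. The labelled tissues matched their markers: 6 of 7 squamous genes were higher in the esophagus and 8 of 8 gastric columnar genes in the stomach. The exception was the brightest probe of Trp63, higher in the stomach, whereas its 3 other probes were called higher in the esophagus.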

How the data were processed

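The labels give 3 esophageal and 3 stomach organoid arrays from mice 1, 2 and 4. The authors scanned single-color arrays with Agilent Feature Extraction (11.5.1.1, in the file headers) and deposited spot intensity values, not normalized between arrays, and log2 values, background corrected and quantile normalized. Which intensity and offset they used is not given in the sources used here. Normexp on the median intensities with an offset of 15 came within a median of 0.00507 and a maximum of 0.243 of the deposited log2 values. The 2029 empty values were the 2029 spots that the scanner software marked as outliers, and no spot was saturated. Each table column was matched to its array by label (Spearman 0.991 to 0.995 with its own scanner values, at most 0.929 with another array's).

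Spots of a probe were averaged, and limma 3.58.1 (lmFit and eBayes, R 4.3.3) compared the tissues over all 55681 probes with Benjamini-Hochberg adjustment. The mice pair the arrays because the labels give 1 animal for both tissues, but the main fit had no term for the mouse. For the 3 mice, deviations from the tissue mean correlated between esophagus and stomach across probes at 0.0421, 0.0226 and -0.00178. Between tissues of different mice these correlations ran from -0.0912 to 0.0399. From 45.5% to 51.1% of spots were well above background, and the number of arrays limits the precision.

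The alternatives were normexp with an offset of 16 or 50 on the mean intensities, 75th percentile scaling of the processed signals, a filter on dim probes, eBayes with a trend and robust variances, a block for the mouse, a block for the slide, each array left out, a threshold of unadjusted p under 0.05 with 1.5-fold, and, for pathway genes, the mean of all probes. All member probes are named, and from each pathway list up to 3 called genes per direction, with some list genes counted but not reported here by name. Il36rn, Il18rap, Il18bp, Nlrp3, Myd88, Tollip and Ptges were named after their values were seen. The members and lists were chosen with earlier results of these data known. Array coordinates are mm9 from the files, and no exon annotation of that build was used here. Names that changed (Il1f5, Il1f6, Il1f8 and Il1f9) were paired with the IL-36 names by hand.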

Additional observations from a re-analysis of the deposited data

How the results depend on the processing

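Il1r1 and Il1r2 kept their direction and call under all 14 alternatives, as did Casp1, Pycard, Gsdmd, Nlrc4, Il18r1, Il36b and Il36g. The count of member probes higher in the esophagus, 2, was 1 with an offset of 50, with 75th percentile scaling and with the slide as a block, and 1 to 2 when each array was left out. The count higher in the stomach, 2, was 1 with an offset of 50 and with trend and robust variances, 1 to 3 when each array was left out, and 3, with Il18 gained, under 75th percentile scaling, the filter on dim probes and the unadjusted threshold. The pathway count higher in the esophagus, 14, was 9 with an offset of 50 and 8 to 17 when each array was left out, the lowest being without the stomach array of mouse 2. The pathway count higher in the stomach, 8, was 8 to 10 when each array was left out. Sign changes came from probes at background. Il1b was 0.21 with 75th percentile scaling and 0.02 with the slide as a block, and -0.11 to 0.02 with arrays left out. The Il1rl1 probe A_55_P2027731 was -0.04 and -0.02 with offsets of 16 and 50, and -0.04 to 0.10 with arrays left out. The Il1rap probe A_55_P2041432 was -0.02 with the slide as a block, and -0.04 to 0.35 with arrays left out. The causes were not tested. Nfkb1 was not called with 75th percentile scaling. Differences of genes dim in 1 tissue changed in size between an offset of 50 and 75th percentile scaling: Il1r2 from 2.19 to 5.47, Casp1 from 6.77 to 10.33, Ccl2 from 4.67 to 8.83, Defb4 from 4.08 to 7.48, Ptgs2 from 2.45 to 4.45, Il36a from 5.07 to 8.38, Il36b from 2.97 to 6.64, Il36g from 3.61 to 6.62, Il18r1 from -3.19 to -7.11 and Nlrc4 from -3.75 to -7.75. Bounds therefore hold for the deposited values. The 75th percentile scaling moved the median of all probes to 0.19 from 0.02. With the mouse as a replicate block, the member counts stayed at 2 and 2, with Il18 called in place of Il33, and the pathway counts were 15 and 11. Slide and esophageal mouse 4 coincide, so the fit within the first slide is the one without that array. Fits that leave out an array have 2 arrays in that tissue.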
